A study of Homo sapiens with 2 samples.

Results

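SREBF2, the main transcription factor of cholesterol synthesis, was examined together with 4 enzymes of the pathway (HMGCS1, SQLE, DHCR7, IDI1), the sterol-controlled retention factor INSIG1 and the sterol carrier STARD4, on arrays of 2 MKN1 lines. These 7 genes, each read by 1 probe set, were found by gene symbol among 17687 named genes. The list held 8 genes, and the remaining one, FDFT1, was not analysed here. MKN1 cells come from a human gastric cancer and are kept as an established line. For one of the lines they were transfected with a pBABE retroviral plasmid for RHOA Y42C, for the other with the same plasmid type for wild-type RHOA, and both were selected with puromycin and grown in RPMI with serum. RHOA is a small GTPase of the actin cytoskeleton, and Y42C is a tyrosine-to-cysteine substitution seen in gastric cancer. Both lines therefore carry a RHOA transgene on top of the cells' own gene, and no parental or empty-vector array was used here. Whether each line was a clone or a pool is not stated. Each line was measured once, so no difference below has an error between samples or a p-value, and the comparison is between these 2 lines.

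Cells make cholesterol from acetyl-CoA through mevalonate, farnesyl diphosphate and squalene. SREBF2 encodes the precursor SREBP-2, which sits in the endoplasmic reticulum with its escort SCAP. When membranes hold enough sterol, INSIG proteins keep SCAP and the precursor there. When sterol is short, the complex moves to the Golgi, where 2 proteases release the part that enters the nucleus and binds sterol regulatory elements, usually beside sites of NF-Y, which reads CCAAT, and of Sp1, which reads GC boxes. SREBP-2 activates most genes of cholesterol synthesis, INSIG1, STARD4 and its own gene.

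The promoters of 4 of the 7 genes are shown because they hold letters of the motifs that this shared control is known to use, in genes that were higher (SREBF2, HMGCS1, DHCR7) and in one that was lower (STARD4) in the Y42C array. Each line gives the 250 bases before an annotated start, 5′ to 3′ on the gene's strand, from RefSeq on GRCh38.p14. Where a gene had several starts, the window with the most CCAAT boxes was taken. Capitals mark the sterol regulatory element TCACNCCAC and the CCAAT box, which reads ATTGG on the opposite strand. The windows are chr22:41832855-41833104 (plus strand) for SREBF2, chr5:43313413-43313662 (minus) for HMGCS1, chr11:71448394-71448643 (minus) for DHCR7 and chr5:111512536-111512785 (minus) for STARD4.
SREBF2: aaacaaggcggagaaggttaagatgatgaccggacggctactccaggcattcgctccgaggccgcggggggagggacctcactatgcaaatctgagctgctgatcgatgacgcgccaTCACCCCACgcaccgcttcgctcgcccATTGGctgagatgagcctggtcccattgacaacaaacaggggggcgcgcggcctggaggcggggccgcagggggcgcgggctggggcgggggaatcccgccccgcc
HMGCS1: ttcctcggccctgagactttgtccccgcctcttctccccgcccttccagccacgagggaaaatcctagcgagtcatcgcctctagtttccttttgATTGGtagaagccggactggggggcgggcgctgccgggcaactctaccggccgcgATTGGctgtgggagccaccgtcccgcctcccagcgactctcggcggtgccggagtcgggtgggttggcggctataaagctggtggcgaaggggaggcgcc
DHCR7: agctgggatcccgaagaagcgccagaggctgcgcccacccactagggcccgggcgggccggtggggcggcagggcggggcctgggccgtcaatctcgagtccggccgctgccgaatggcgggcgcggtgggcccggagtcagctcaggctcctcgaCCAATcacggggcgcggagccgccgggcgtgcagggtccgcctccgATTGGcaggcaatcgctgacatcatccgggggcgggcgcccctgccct
STARD4: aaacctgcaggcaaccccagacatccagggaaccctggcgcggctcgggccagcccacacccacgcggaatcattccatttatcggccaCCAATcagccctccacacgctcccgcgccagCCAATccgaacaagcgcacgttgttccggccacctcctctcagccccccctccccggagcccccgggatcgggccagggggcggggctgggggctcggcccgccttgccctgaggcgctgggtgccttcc

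Of the 7 measured genes, 6 matched the promoter table, with 10 start windows in all, and SQLE did not. A CCAAT box stood in at least 1 window of all 6 genes and in 7 of the 10 windows, against 37.0% of all genes and 32.0% of all 35116 windows in the table. The GC box GGGCGG also stood in all 6 genes and in 9 of 10 windows, against 46.2% of all genes and 42.6% of all windows. Both strands were searched, and matches may overlap. The sterol regulatory element was found in SREBF2 alone among the 6 genes, from position -133 to -125, against 1.09% of all genes and 0.883% of all windows. In SREBF2 18 bases separate it from the inverted CCAAT box. In the windows shown, STARD4, HMGCS1 and DHCR7 each held 2 CCAAT boxes and SREBF2 held 1, while GC boxes numbered 1 in STARD4, 2 in SREBF2, 2 in HMGCS1 and 4 in DHCR7. The E-box CACGTG stood in INSIG1 only among the 6 genes, against 7.73% of all genes and 6.34% of all windows. Over the synthesis enzymes together with SREBF2, INSIG1 and STARD4, 17 of 20 genes in the table held a CCAAT box in at least 1 window, against 37.0% of all 27305 genes in the table. The sterol regulatory element stood in 1 of these 20 genes, SREBF2. Other spellings of this element and bases outside the windows were not searched, so a gene without a match may still have one. A match is a run of letters, not a measured site.

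The 7 genes lay well above the expression minimum on both arrays. This minimum was the 95th percentile of 349 olfactory receptor genes, taken as silent in these cells, and stood at 5.14 in the Y42C array and 5.17 in the wild-type array on the log2 scale. Genes that reached it on either array were kept, 11802 in all. Of these, 7.46% were higher in the Y42C array by 2-fold or more, and 9.8% were lower by that much. Which of these 2 shares was larger depended on the processing, as given below. Higher by any amount were 45.2%, lower by any amount 54.2%, and the median difference over all kept genes was -0.07. Against that background, 4 of the 7 genes were higher by 2-fold or more, 1 was lower by that much and 2 lay between, and 6 of 7 were higher by any amount. Their median difference was 1.13, with a range of -1.08 to 2.14. In RNA of whole cultures, a lower level in every cell and fewer cells that express a gene cannot be told apart. All differences are Y42C minus wild-type on the log2 scale, and all folds assume that the deposited values are log2.

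SREBF2 itself had the largest difference of the 7. Its log2 signal was 10.80 in the Y42C array, against 8.66 in the wild-type array, a difference of 2.14 or 4.41-fold. It ranked 86th from the top of the 11802 genes. To set each difference beside the spread of genes of like signal, the kept genes were split into 20 bins of mean signal. The difference of SREBF2 lay 2.85 scaled median absolute deviations above the median of its 587-gene bin, in which 8.86% of genes were higher by 2-fold or more. This spread is between genes and includes whatever truly differs, so it is not a replicate error.

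DHCR7, which makes cholesterol from 7-dehydrocholesterol in the last step of one branch, had 14.61 in the Y42C array, against 13.19 in the wild-type array. The difference of 1.42 (2.68-fold) ranked 367th from the top. It stood farthest from genes of like signal among the 7, at 3.04 scaled deviations, in a bright bin whose scaled deviation was 0.47, against 0.80 in the bin of SREBF2. SQLE, the squalene epoxidase and a rate-limiting enzyme of the sterol part, had 11.47 in the Y42C array, against 10.07 in the wild-type array. That is a difference of 1.40 (2.64-fold), at 2.17 scaled deviations and rank 381. SQLE and DHCR7, an early and a late sterol enzyme, thus differed by nearly the same amount.

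HMGCS1, the cytosolic HMG-CoA synthase at the entry of the mevalonate part, had 14.11 in the Y42C array, against 12.98 in the wild-type array. Its difference of 1.13 (2.19-fold) passed 2-fold by little and ranked 681st, at 2.06 scaled deviations. IDI1, the isopentenyl-diphosphate isomerase a few steps further on, had 12.74 in the Y42C array, against 12.26 in the wild-type array. This difference of 0.48 (1.39-fold) was within 1 scaled deviation of its bin (0.85), so IDI1 did not stand out from genes of like signal. Its relative IDI2 was below the minimum on both arrays, at 4.71 in the Y42C array and 4.48 in the wild-type array.

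INSIG1, whose transcription SREBP-2 drives and whose protein holds SREBP-2 back, had 9.62 in the Y42C array, against 9.23 in the wild-type array. The difference of 0.39 (1.31-fold) was 0.62 scaled deviations from the median of its bin and ranked 2925th. It was the difference of the 7 closest to 0. STARD4, a soluble carrier that moves cholesterol between membranes, went the other way. It had 9.39 in the Y42C array, against 10.47 in the wild-type array, a difference of -1.08 (2.11-fold lower). It ranked 966th from the bottom, at -1.17 scaled deviations, in a bin where 13.5% of genes were at least 2-fold lower. STARD4 and INSIG1 thus had the lowest differences of the 7. SREBF2, like them a known SREBP-2 target outside the enzyme chain, had the highest (2.14).

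**Figure D1:**
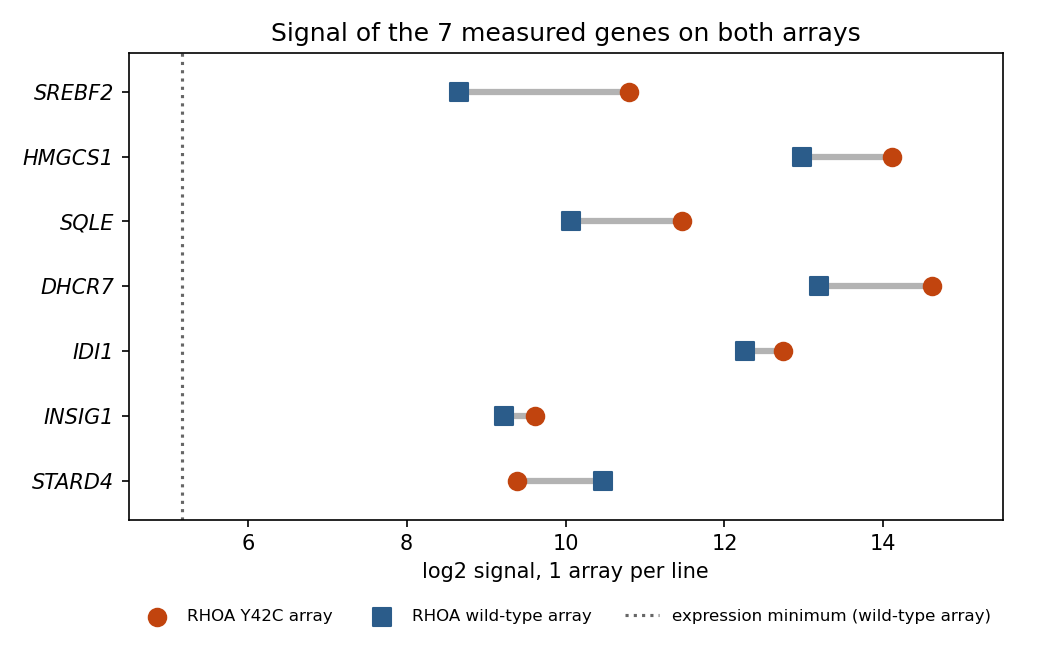
Log2 signal of the 7 measured genes (horizontal axis) in the RHOA Y42C array (orange circles) and the RHOA wild-type array (blue squares), 1 array per line, with the wild-type expression minimum of 5.17 dotted. The widest gap is that of SREBF2 (10.80 for Y42C and 8.66 for wild-type), and STARD4 is the gene whose Y42C value lies to the left.

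**Figure D2:**
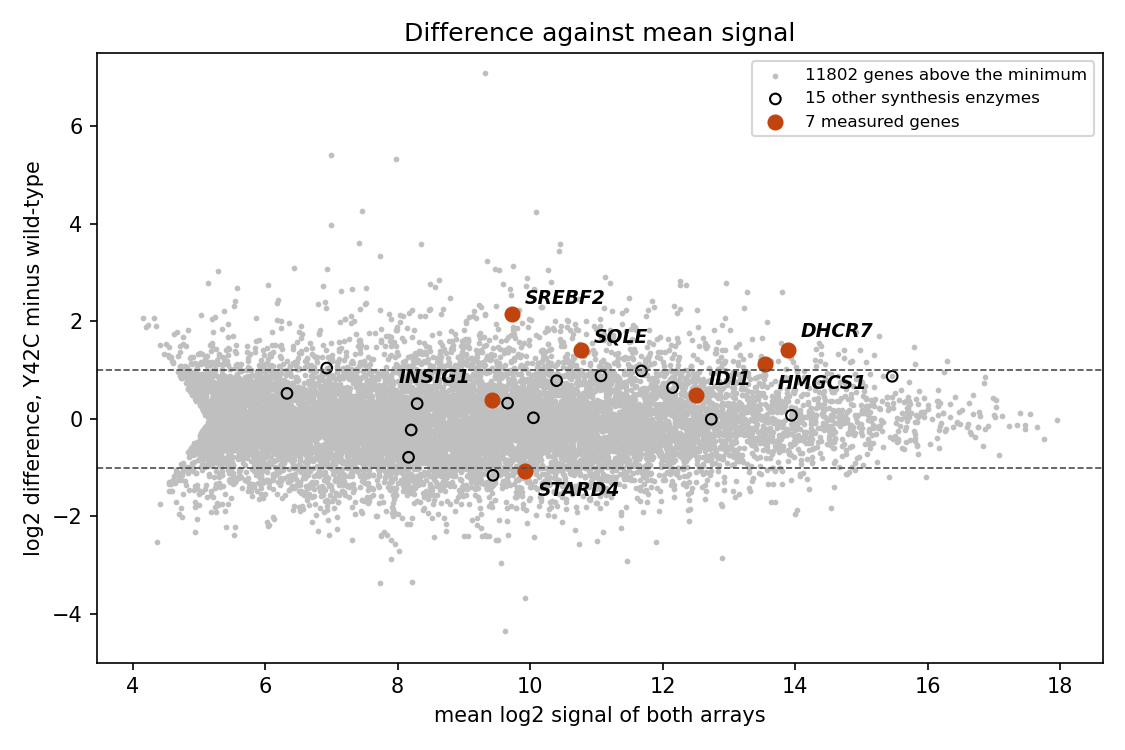
Log2 difference, Y42C minus wild-type (vertical axis), against the mean log2 signal of both arrays (horizontal axis) for the 11802 genes above the minimum, with the 7 measured genes in orange, 15 other synthesis enzymes as open circles and dashed lines at 2-fold. SREBF2, DHCR7, SQLE and HMGCS1 lie above the upper line, STARD4 just below the lower one.

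The enzyme chain as a whole leaned the same way. Of 22 synthesis enzymes listed, 19 were named and all 19 were above the minimum. In the Y42C array 15 were higher and 4 lower, while 45.2% of all kept genes were higher by any amount. Of the 19, 4 were past 2-fold upward and 1 past 2-fold downward. Among all kept genes 7.46% were past 2-fold upward and 9.8% downward. The median difference of the 19 was 0.52, against -0.07 over all kept genes. Without the 4 enzymes already described, the other 15 had a median of 0.32, with 11 higher, 4 lower and 1 past 2-fold in each direction. Most of the chain thus differed by less than 2-fold, mostly upward.

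The enzymes were divided into a mevalonate and a sterol part after their values were seen. In the mevalonate part, which ends at farnesyl diphosphate, 6 of 7 enzymes were higher, with a median of 0.64. By any amount, 45.2% of all kept genes were higher. MVD, the mevalonate diphosphate decarboxylase, had 7.45 in the Y42C array, against 6.41 in the wild-type array (1.04), and so lay just past 2-fold. ACAT2, which joins acetyl-CoA units, differed by 0.78, FDPS, the farnesyl diphosphate synthase, by 0.64, and the mevalonate kinase MVK by 0.31. PMVK, the next kinase, was the lower one at -0.23.

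In the sterol part, from squalene onward, 9 of 12 enzymes were higher, against 45.2% of all kept genes, with a median of 0.42. CYP51A1, the lanosterol demethylase, differed by 0.98, just short of 2-fold. NSDHL and MSMO1, which remove the methyl groups at carbon 4 of the ring, differed by 0.88 and 0.87. TM7SF2, a sterol reductase, differed by 0.52, and LSS, which closes the ring, by 0.32. The later enzymes EBP (0.07) and SC5D (0.02) and the scaffold ERG28 (-0.01) had nearly equal values on both arrays. LBR, a sterol reductase that is also an inner nuclear membrane protein, had 8.86 in the Y42C array, against 10.02 in the wild-type array, and was 2.23-fold lower. HSD17B7, a ketosterol reductase, lay at -0.79. TM7SF2 and LBR catalyse the same reduction and differed in opposite directions.

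**Figure D3:**
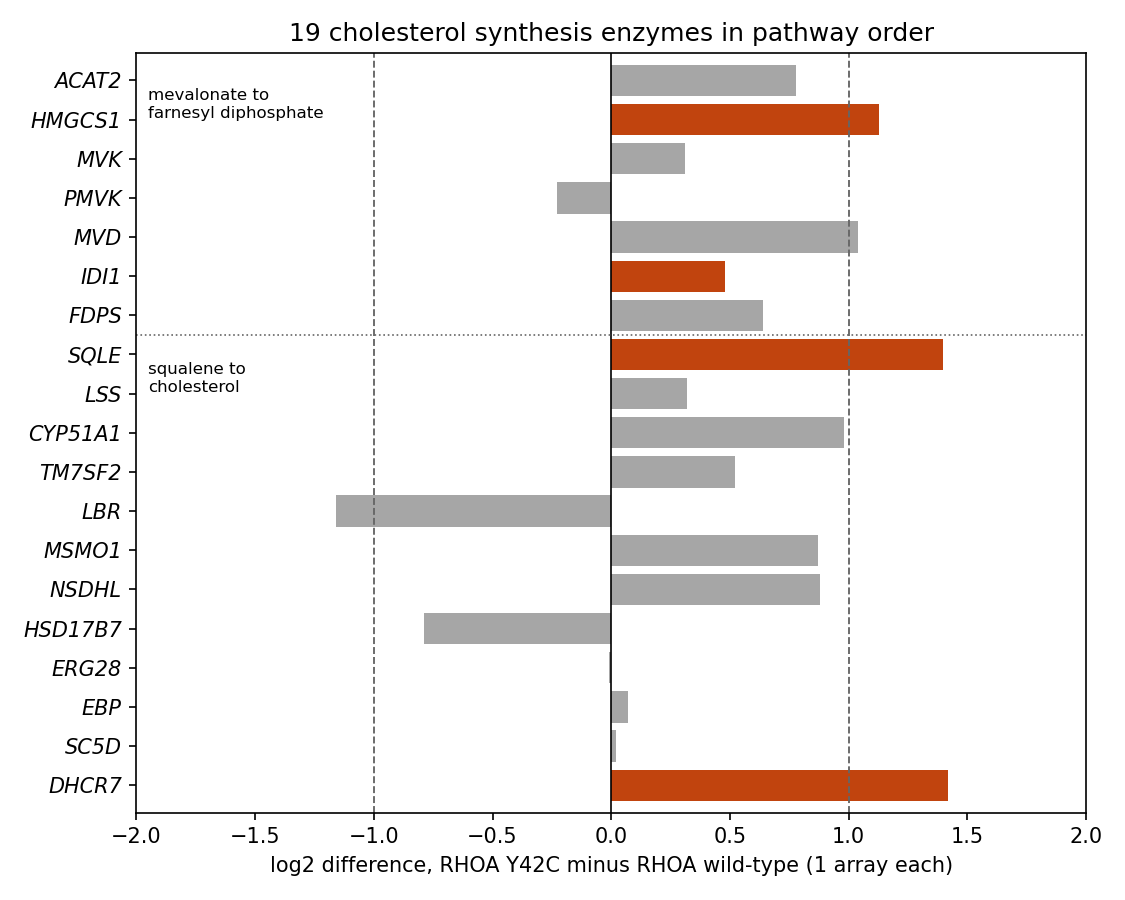
Log2 difference, Y42C minus wild-type (horizontal axis, bars from 0), for 19 cholesterol synthesis enzymes in pathway order from top to bottom, with HMGCS1, IDI1, SQLE and DHCR7 in orange and dashed lines at 2-fold. Bars point right for 15 enzymes, and LBR (-1.16) is the 1 bar that crosses the lower line.

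The list of SREBF2, SREBF1 and the genes that control SREBP processing was mixed. Of 16 above the minimum, 9 were higher and 7 lower, with 3 past 2-fold upward, 0 downward and a median of 0.16. Among all kept genes 7.46% were past 2-fold upward and 9.8% downward. Beside SREBF2 the 3 included its paralogue SREBF1, the factor of fatty acid synthesis, which had 12.31 in the Y42C array, against 11.16 in the wild-type array (2.22-fold). The third, and the only one of the 3 that acts in processing, was MBTPS1, the site-1 protease that makes the first cut. It had 10.77 in the Y42C array, against 9.59 in the wild-type array (2.27-fold). The escort SCAP differed by -0.59 and the second retention factor INSIG2 by -0.30. Among the COPII coat genes that carry the complex to the Golgi, SEC24A stood at 0.80 and SEC23A was the lowest of the list at -0.65.

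MIR33A and MIR33B, which encode microRNAs known to repress the cholesterol exporter ABCA1, lie within SREBF2 and SREBF1. Their main mature forms are shown because the host genes were both higher. Both sequences come from RefSeq on GRCh38.p14, at chr22:41900949-41900969 (plus strand) and chr17:17813897-17813916 (minus strand), and capitals mark the seed, bases 2 to 8, which both share.
hsa-miR-33a-5p: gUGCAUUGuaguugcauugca
hsa-miR-33b-5p: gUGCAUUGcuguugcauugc
The microRNAs themselves were not measured. ABCA1 had 11.72 in the Y42C array, against 12.14 in the wild-type array, a difference of -0.42. It ranked only 3643rd from the bottom of the 11802 genes, and a link to the microRNAs was not tested.

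The machinery that degrades sterol enzymes and INSIG1 in the endoplasmic reticulum showed no common direction. Of 13 genes, 6 were higher, 6 lower and 1 equal, with a median of 0. Past 2-fold were 2 of the 13 genes, both lower, and 9.8% of all kept genes were that much lower. UBE2G2, a ubiquitin-conjugating enzyme of this route, had 9.60 in the Y42C array, against 11.11 in the wild-type array (2.85-fold lower). ERLIN2, a membrane scaffold of the same route, had 7.93 in the Y42C array, against 9.17 in the wild-type array (2.36-fold lower). NPLOC4, a cofactor of the extracting ATPase, was highest at 0.78.

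Among uptake genes and other SREBP-2 targets, 9 genes were above the minimum and had a median of 0.39, with 7 higher and 2 lower. By any amount, 45.2% of all kept genes were higher. SREBF2 and STARD4, both counted in this list, were the 2 past 2-fold, 1 in each direction. Among all kept genes 7.46% were past it upward and 9.8% downward. NPC1, which exports cholesterol from lysosomes, differed by 0.92, and ACSS2, which makes acetyl-CoA from acetate, by 0.91. RAB11A, an endosomal GTPase, lay at -0.22.

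Sterol transport and esterification genes were split evenly. Of 20 above the minimum, 10 were higher and 10 lower, with a median of -0.065, whose sign turned under other settings. Past 2-fold were 3 of the 20 downward and 0 upward, against 9.8% and 7.46% of all kept genes. OSBPL8, a lipid transfer protein at contacts of the endoplasmic reticulum and plasma membrane, had 11.13 in the Y42C array, against 12.53 in the wild-type array (2.64-fold lower). OSBPL6, of the same family, had 5.60 in the Y42C array, against 6.73 in the wild-type array (2.19-fold lower), and STARD4 was the third. STARD3, a late endosomal relative of STARD4, differed by -0.93, STARD5 by -0.48, and STARD6 was below the minimum. The cholesterol esterifying enzyme SOAT1 lay at -0.37. NPC1, at 0.92, was the highest of the list.

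Genes of the sterol-activated LXR receptors and of efflux gave a median of -0.21 over 10 genes, with 4 higher, 5 lower and 1 equal. Upward 3 of the 10 were past 2-fold and downward 1, against 7.46% and 9.8% of all kept genes. Past 2-fold upward were APOC1, an apolipoprotein (1.12), SMPDL3A, an LXR-induced phosphodiesterase (1.17), and SREBF1, also counted in the processing list. The downward one was LPCAT3, a phospholipid remodelling enzyme (-1.15). APOC1 was dim, with 6.56 in the Y42C array and 5.44 in the wild-type array, near the minimum of 5.17. With 16 added to the linear values, the upward count of the list was 2. The receptor gene NR1H3 was equal at 7.35 in both arrays. The exporter ABCG1 differed by -0.69. Oxysterol and bile acid enzymes were mostly dim: 6 of 8 were below the minimum on both arrays, and CYP11A1 (0.35) and CYP7B1 (0.12) were the 2 above it.

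The branch that leaves the pathway at farnesyl diphosphate makes the lipid anchors of RHOA and other small GTPases. The list for it also held genes of coenzyme Q (PDSS1, PDSS2, COQ2) and dolichol (DHDDS, NUS1) synthesis. Its 14 genes had a median of -0.38, with 9 lower and 5 higher, 3 past 2-fold downward and 0 upward. Among all kept genes 54.2% were lower, and 9.8% were lower by 2-fold or more. PGGT1B, the catalytic subunit of the transferase that attaches geranylgeranyl to RHOA, had 7.22 in the Y42C array, against 8.71 in the wild-type array (2.81-fold lower). FNTA, the other subunit of that transferase, differed by 0.27. ZMPSTE24, a protease for prenylated proteins such as prelamin A, had 11.67 in the Y42C array, against 12.98 in the wild-type array (2.48-fold lower). RABGGTA, a subunit of the RAB geranylgeranyl transferase, had 9.02 in the Y42C array, against 10.32 in the wild-type array (2.46-fold lower). GGPS1, which makes geranylgeranyl diphosphate, lay at -0.37. FDPS, shared with the sterol route, was the highest at 0.64.

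**Figure D4:**
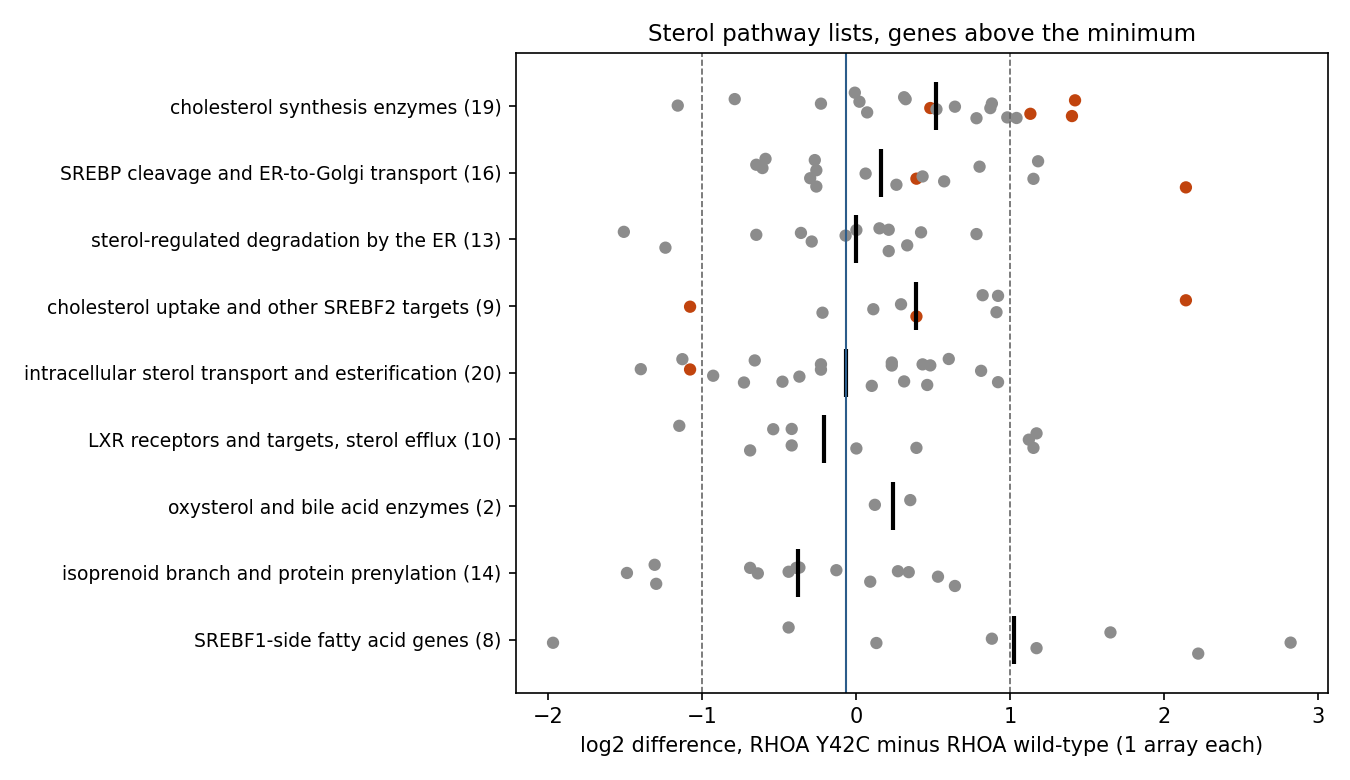
Log2 difference, Y42C minus wild-type (horizontal axis), of each gene above the minimum in 9 sterol-related lists (rows, number of genes in brackets), with orange points for the 7 measured genes, black bars at list medians, a blue line at the median of all kept genes (-0.07) and dashed lines at 2-fold. The synthesis enzymes have a median of 0.52, and the list with the prenylation genes one of -0.38.

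The labels were set beside marker genes. The epithelial keratins KRT8, KRT18, KRT19 and KRT7 and EPCAM were bright on both arrays (13.30 to 17.96), while CDH1 and the gastric secretory markers TFF1, TFF2, MUC5AC, MUC6, GKN1, GKN2 and PGC were below the minimum on both. The gastric claudin CLDN18 was above it on both, at 6.05 in the Y42C array and 5.48 in the wild-type array, and CLDN4 had the largest difference of this list, with 9.49 in the Y42C array and 8.80 in the wild-type array. Of 10 leukocyte markers, 6 were above the minimum on at least 1 array, with differences from -1.78 (CD14) to 0.97 (CD3E). The wild-type values of CD3E (4.70) and PTPRC were below the minimum, so their folds of 1.41 and 1.16 are lower bounds. CD14, the 1 marker of this list past 2-fold, had 5.67 in the Y42C array and 7.45 in the wild-type array. CD68 had 10.15 in the Y42C array and 10.66 in the wild-type array, and PTPRC had 5.39 in the Y42C array and 4.61 in the wild-type array. The summed linear signal of all 10 was 1550 in the Y42C array and 2064 in the wild-type array. Of 9 fibroblast and endothelial markers, 5 were above the minimum, and the summed linear signal of all 9 was 21918 in the Y42C array and 4826 in the wild-type array, with most of it from LUM (14.37 in the Y42C array and 12.09 in the wild-type array on the log2 scale). LUM and COL1A2 (8.72 in the Y42C array and 7.68 in the wild-type array) were the 2 of this list past 2-fold, both higher. The other kept genes of the list were VWF (0.80), PECAM1 (-0.07) and COL1A1 (-0.21). Among all kept genes 7.46% were past 2-fold upward and 9.8% downward. The part of these marker differences in the results above was not tested. RHOA signal was 16.30 in the Y42C array and 16.47 in the wild-type array, and the probe set was not taken to tell mutant from wild-type RNA, so it does not check the labels.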

How the data were processed

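Total RNA of each line was purified on columns, turned into biotinylated cRNA and measured on 1 Affymetrix array, per the labels' protocols. The deposited table holds the authors' value for 21448 probe sets on each array, between 2.23 and 18.16, read here as log2 signal from that range. The log base, background correction and normalization are not stated there or in the labels. Affymetrix Expression Console was used, per the submitters' processing notes. Array medians were 6.36 for Y42C and 6.42 for wild-type. Arrays give no read depth, and their number limits the precision.

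The platform annotation named 17709 probe sets, and 3739 are unnamed here. All symbols were kept after a match to RefSeq by Entrez identifier. Probe sets of 1 gene were averaged (20 genes). Differences, counts past 2-fold and list medians were computed with no test. Of 184 entries in 12 gene lists, 161 were named. The text names the measured members, list genes past 2-fold, most list extremes and a few genes fixed by name; other genes named, and the division of the enzymes into a mevalonate and a sterol part, were chosen after their values were seen. Members and lists were chosen with earlier results of these data known. Some genes are not reported here. The functions were tested on simulated data. Figures were drawn with matplotlib 3.10.9, the trend on level was fitted with statsmodels 0.14.6 (lowess, span 0.3), and the rest was computed with NumPy 2.4.6 and pandas 2.3.3 in Python 3.11.15.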

Additional observations from a re-analysis of the deposited data

How the results depend on the processing

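Of 42 member differences recomputed under quantile normalization, median centring, lowess removal of a signal-dependent trend, a linear offset of 16, the brightest probe set and flooring at the minimum, 41 kept their direction and their side of 2-fold. The exception was STARD4, at -0.96 once the trend was removed. The brightest probe set and the flooring could not change any member. Each member had 1 probe set and lay above the minimum on both arrays. SREBF2 ranged from 2.10 to 2.26, and HMGCS1 from 1.13 to 1.19. At 2-fold, the count of higher synthesis enzymes was 4 as deposited and 5 with median centring, quantile normalization or the trend removed. It was 3 with the linear offset. With a 1.5-fold threshold, 9 synthesis enzymes were higher and 2 lower, among 2106 higher and 2758 lower genes in all, and with a 3-fold threshold 0 and 0, among 260 and 235. No enzyme is therefore past 3-fold. Over all kept genes at 2-fold, 881 were higher and 1157 lower with the values as deposited. With each array centred on its median these counts were 1030 and 1031, and with the trend removed 1057 and 963. The excess of lower genes over higher ones thus depended on the processing. The median of the sterol transport and esterification list, -0.065, was 0.005 after quantile normalization, 0.048 with the trend removed, 0.10 with no minimum and also with the minimum at the 99th percentile of olfactory receptor genes, and 0.165 with it at the array median. These settings changed the values or the genes kept, and the cause was not tested beyond that. Of 81 list medians, 73 moved by at most 0.1 without a change of sign. The median of the LXR and efflux list, -0.21, was -0.08 with the trend removed. No paired analysis was possible because each line has 1 array. No setting replaces a replicate.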

Other observations

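Genes on the fatty acid side, which SREBF1 is known to drive, stood beside the sterol genes with a wider spread. Of 8 kept genes, 4 were past 2-fold upward in the Y42C array and 1 downward, with a median of 1.02. Among all kept genes 7.46% were past 2-fold upward and 9.8% downward. FASN, the fatty acid synthase, had the highest difference of the list (2.82), followed by the acetyl-CoA carboxylase ACACA (2.22) and the desaturases FADS2 (1.65) and SCD (1.17), and ELOVL6, an elongase, the lowest (-1.97). The malic enzyme ME1, a source of NADPH for both routes, differed by 0.13, and GPAM, which starts glycerolipid synthesis, by -0.44. ELOVL6 and STARD4 are both known SREBP targets and both were at least 2-fold lower, though STARD4 was at -0.96 with the trend removed. Most genes of the fatty acid list went the other way, with 6 of 8 higher, against 45.2% of all kept genes.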
